A study of Mus musculus with 2 samples.

Results

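The chemokine ligands were the 35 mouse genes of the secreted or shed chemotactic protein family named in the rule, picked by gene symbol. No measured value entered the rule, but the list was chosen with earlier results of these data known. Of the 35 genes, 34 were in the feature list, out of 32245 gene symbols in all, and Cxcl11 was not analysed here. Dissociated tumour tissue from 2 groups of C57BL/6 female mice, 6 to 8 weeks old, was profiled with droplet-based single-cell RNA sequencing. Both groups had undergone abrasion of the peritoneum and had then received syngeneic ovarian cancer cells that lack p53 and carry myc and Hras, injected intraperitoneally. One group was given control IgG and the other an antibody that neutralizes Activin A, in both cases by daily intraperitoneal injection for 10 days. The labels give 7 mice treated with control IgG and 8 with the antibody, and tumours were pooled. Each group was therefore 1 library, the mice within it cannot be told apart, and no test between the groups was possible. The cancer cells were a single engineered line, and the hosts kept their own immune system.

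Chemokines are small secreted proteins that steer the migration of leukocytes by binding to G protein-coupled receptors. They are grouped as CC, CXC, C and CX3C ligands by the spacing of their conserved cysteines, and most genes of the CC and CXC groups lie side by side in the genome. In tumours, fibroblasts, macrophages, cancer cells and the T cells themselves are all known to make some of them. Ligands of CCR2 attract monocytes, ligands of CXCR2 attract neutrophils, and ligands of CXCR3 attract activated T cells and NK cells.

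The control IgG library held 98174850 UMIs (unique molecular identifiers, each standing for 1 captured transcript) and the antibody library 74117462. A barcode was taken as a cell when it had between 1000 and 8500 genes, between 1000 and 100000 UMIs, and no more than 10% of them mitochondrial. This left 8770 control IgG cells with a median of 5719 UMIs and 6386 antibody cells with a median of 4660 UMIs, and 19 barcodes were shared by kept cells of both libraries. Cells were placed in a class by lists of marker genes that hold no chemokine. The lymphoid class held 5766 control IgG and 4634 antibody cells. The myeloid class held 2134 and 913 cells, the stromal class 266 and 263, and the cancer-like class 366 and 395. Macrophage-gated cells made up 12.5% and 4.67% of the kept cells. The defining markers were present in the classes named for them: the T list summed to 4379 and 4154 CPM (UMIs per 1000000 UMIs of the class) in the lymphoid class, and the fibroblast list to 30336 and 33137 CPM in the stromal class. The cancer-like class was gated on Dlk1, Hmga2, Cdkn2a, Lgals7 and Mid1, which came from an earlier look at these same libraries, and these summed to 5106 and 5056 CPM. No cell was gated as mural, and the endothelial gate held 7 and 2 cells, so the stromal class was mostly fibroblasts (231 and 241 cells) with 28 and 20 mesothelial cells. RNA in barcodes under 100 UMIs, taken as free RNA, made up 6.39% and 6.23% of all UMIs. Free RNA contained many of the ligands, up to 2736 and 2787 CPM for Ccl5.

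The summed level of the 34 ligands was highest in the lymphoid class, at 7479 CPM with control IgG and 8661 CPM with the antibody. The myeloid class was next with 6061 and 5781 CPM, followed by the stromal class with 3468 and 2731 CPM. The cancer-like class had the lowest sum, at 478 and 567 CPM. Ccl5 alone made up 91.0% and 90.3% of the lymphoid sum, and without it the lymphoid level was 676 and 838 CPM, below the myeloid and stromal levels. In the myeloid class no ligand dominated to that extent: Ccl5 supplied 22.5% and 16.4% and Ccl6 16.5% and 15.1%. The leading stromal ligand was Ccl2, with 18.4% and 29.6% of the sum.

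Of the 34 ligands, 30 reached 50 UMIs over both libraries in at least 1 class. Ccl20 had no UMI in the 4 classes of either library. Cxcl15 had 0 and 5 UMIs in the 4 classes, Ppbp 2 and 6, and Cxcl17 8 and 24. Among the 30, 27 had their highest CPM in the same class in both libraries. This was the myeloid class for 12 ligands, the stromal class for 11, the lymphoid class for Ccl5, Ccl1 and Xcl1, and the cancer-like class for Ccl25. The other 3, Cxcl3, Cxcl10 and Cxcl13, were highest in stromal cells with control IgG and in myeloid cells with the antibody.

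**Figure D1:**
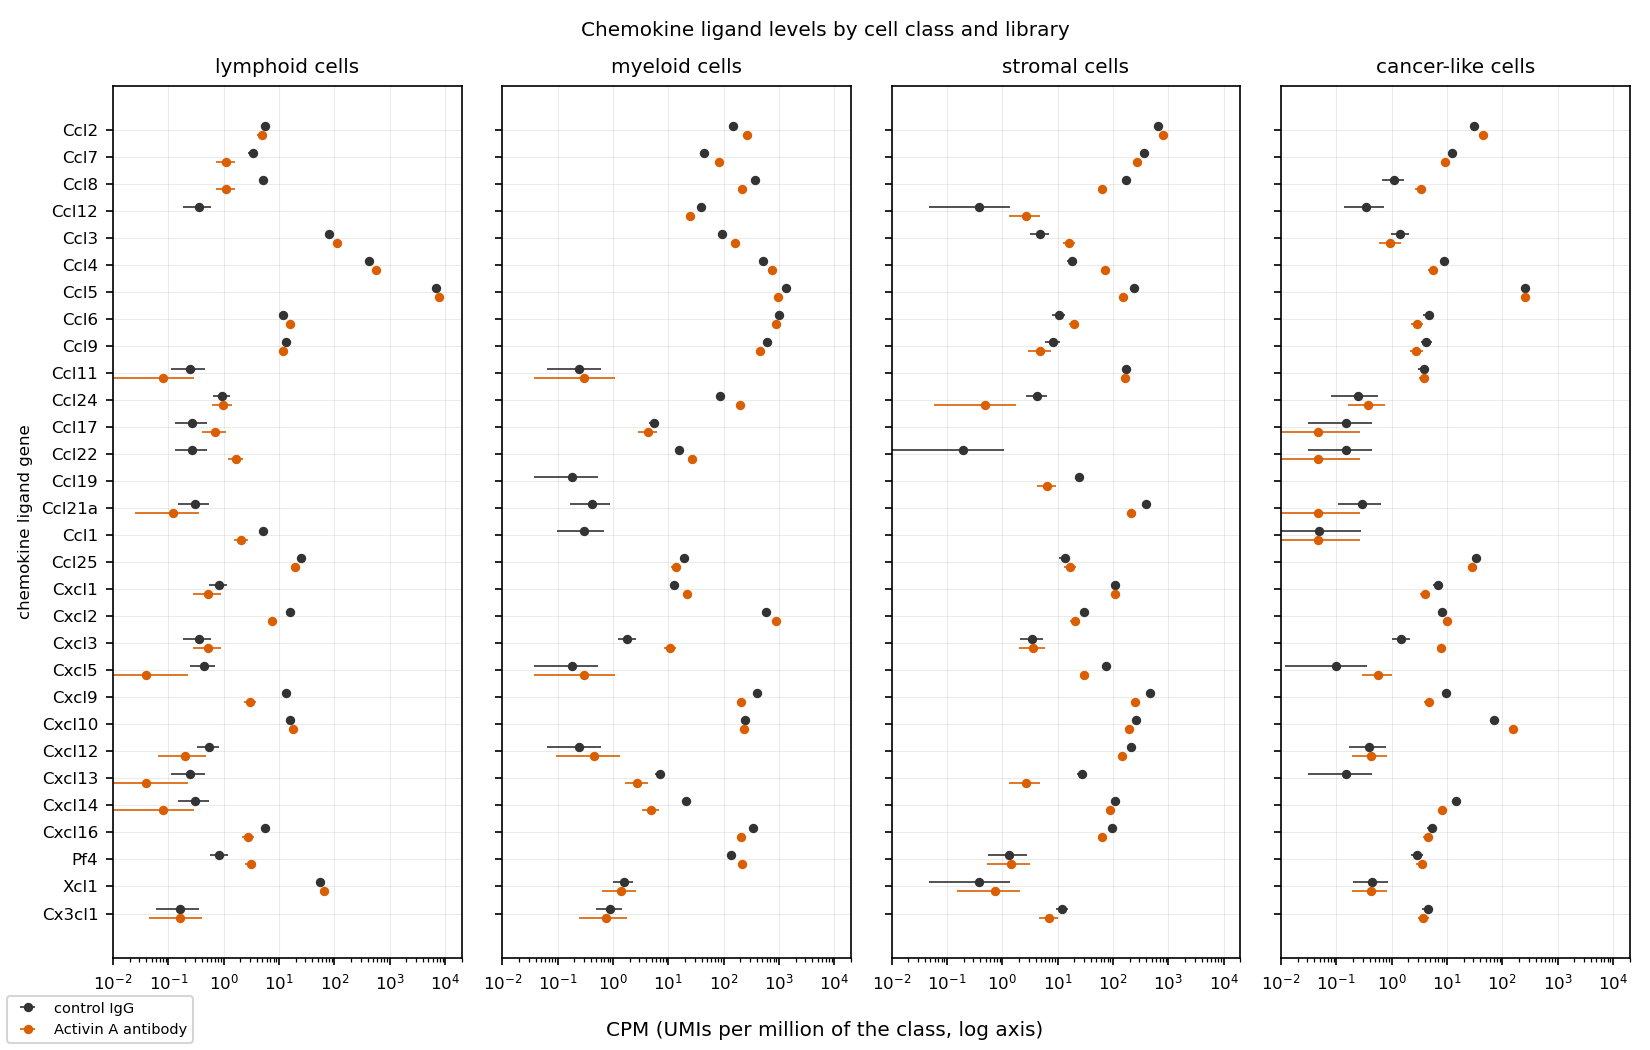
Level of each of the 30 ligands with at least 50 UMIs in some class, as CPM on a log axis, in the 4 classes; points are the control IgG and the Activin A antibody library, bars the 95% Poisson interval for counting error only, and a library at 0 UMIs has no point. Ccl5 in lymphoid cells (6803 and 7823 CPM) lies highest, and 27 of the 30 ligands have the same top class in both libraries.

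The class that held most UMIs of a gene was set by its level and by the number and depth of the cells. Macrophage and monocyte cells were fewer in the antibody library, and the myeloid share of several ligands was lower there. In the control IgG library myeloid cells held 53.3% of Cxcl10 UMIs, in the antibody library 24.9%, while cancer-like cells held 18.7% and 53.9%. For Cxcl9 the myeloid share was 67.8% and 50.4%, and for Ccl8 it was 84.3% and 71.0%. Ligands with 1 main source kept it: Ccl11 was 89.0% and 86.6% stromal, and Ccl5 88.5% and 92.9% lymphoid.

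**Figure D2:**
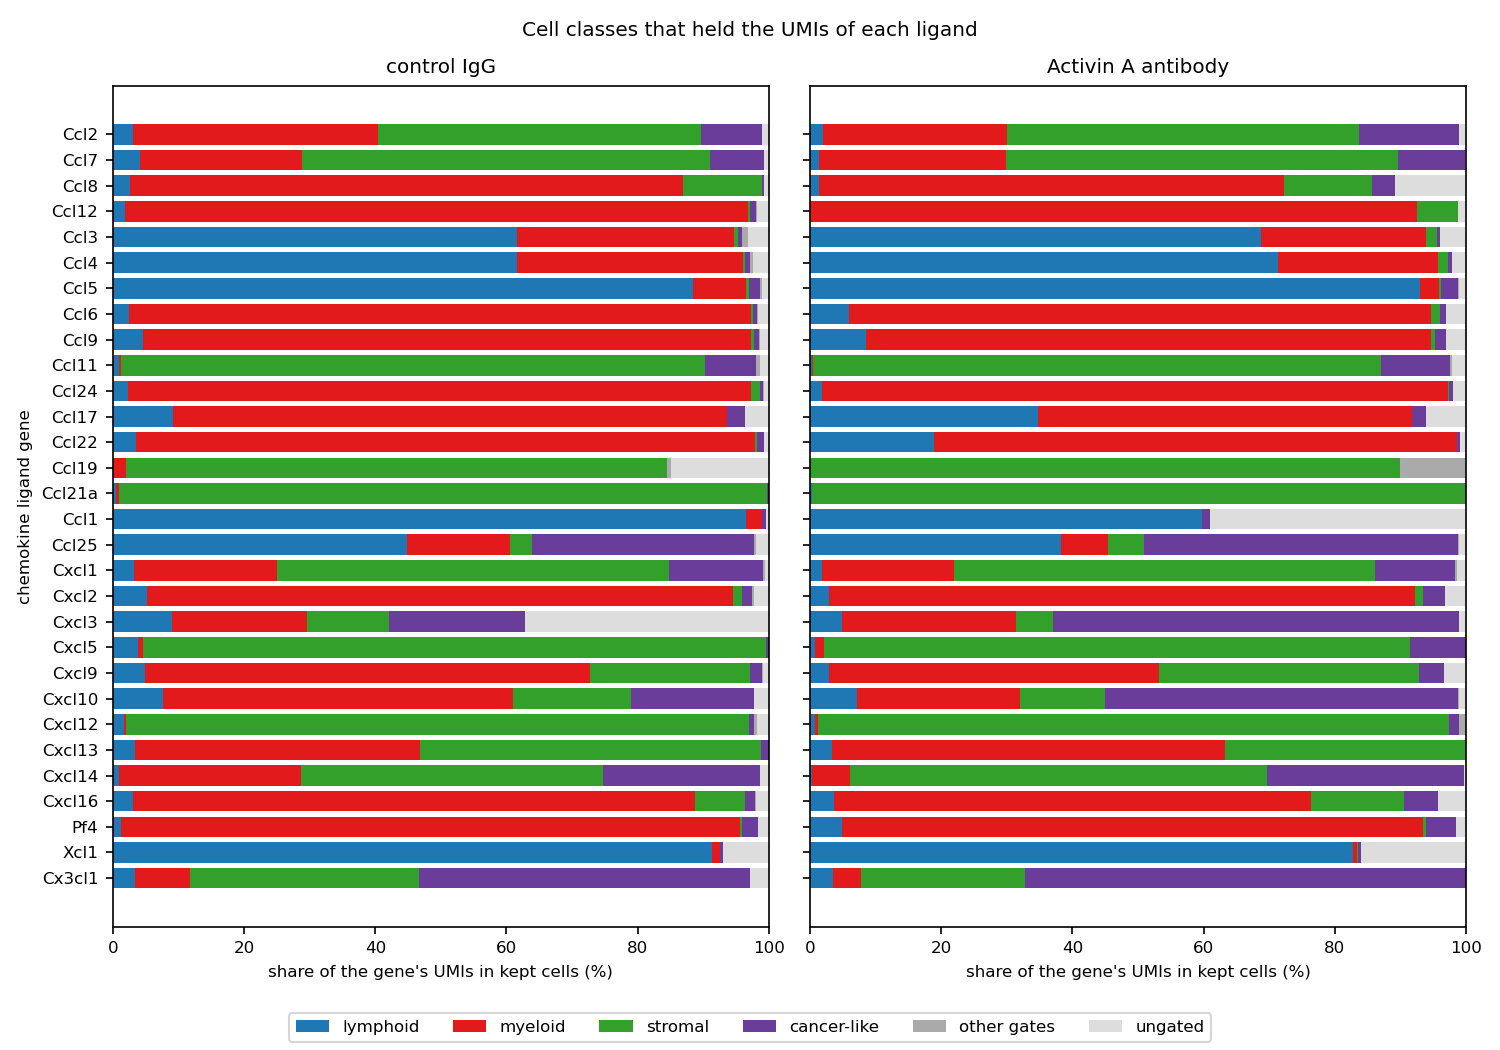
Share of each ligand's UMIs in kept cells (0 to 100%) that lay in each class, in the control IgG library (left) and the Activin A antibody library (right); other gates are skeletal muscle and adipocyte. The cancer-like part of the Cxcl10 bar is 18.7% on the left and 53.9% on the right.

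The comparison of the libraries asks whether blocking Activin A went along with another chemokine output in each class. A ligand was counted in a class when it had at least 50 UMIs there, and called when its CPM differed by 2-fold or more. In lymphoid cells 8 of 18 counted ligands were called, against 1.8% of all counted genes. A filter then left out cells that held 3 or more markers of any 1 list of another class. The same rule is meant wherever such cells are left out below. With it, 3 of 15 were called (Ccl8, Ccl1 and Cxcl16), against 1.5% of all genes counted in that setting. That filter left 98.3% and 99.0% of lymphoid, 67.3% and 83.3% of stromal, and 29.5% and 43.5% of cancer-like cells (108 and 172 cells). Of the 8 lymphoid calls, Ccl22 and Pf4 were higher with the antibody (0.68% of all genes were called higher). Ccl7, Ccl8, Ccl1, Cxcl2, Cxcl9 and Cxcl16 were lower (1.12% called lower). In free RNA Ccl8 stood at 92.6 and 28.0 CPM, Cxcl16 at 56.6 and 31.2 CPM and Ccl1 at 0.637 and 5.42 CPM. Free RNA was subtracted as an alternative, scaled on the marker lists of other classes. That gave no ratio for Ccl7, Ccl8, Cxcl2, Cxcl16 and Pf4, which lay below the share taken off in both libraries. It gave -1.73 for Ccl1. Ccl22 lay below that share with control IgG and Cxcl9 with the antibody, so their ratios of 3.69 and -4.72 are bounds. The part of free RNA in the lymphoid ratios was not tested further. In myeloid cells 4 of 22 were called, against 4.76% of all genes, and 7 of 22 were called, against 3.22% of all genes, when each gate was given its weight in the control IgG library. Ccl24 and Cxcl3 were higher (3.16%), and Cxcl13 and Cxcl14 were lower (1.6%). In stromal cells 6 of 22 were called, against 3.31% of all genes. Ccl3 and Ccl4 were higher (1.86%), and Ccl8, Ccl19, Cxcl5 and Cxcl13 were lower (1.45%). In cancer-like cells 3 of 18 were called, against 2.2% of all genes. These were Ccl8, Cxcl3 and Cxcl10, all higher (1.04%), while 1.16% of all genes and no ligand were called lower. That direction depended on the cells kept. Without cells that held 3 markers of another class 4 of 11 were called, with Cxcl3 and Cxcl10 higher and Ccl2 and Cxcl1 lower, and Ccl8 was not counted. The share of all genes in that setting is not given here.

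The median log2 ratio of the counted ligands, antibody over control IgG, was -0.53 in stromal cells, where 17 of 22 were lower, and 0.03 over all stromal genes. Without cells that held 3 markers of another class it was -0.48, with 13 of 18 lower. Most marker lists of other classes were lower with the antibody in stromal cells, and some were higher. The T list was 198 and 95.6 CPM, the monocyte list 127 and 56.4 CPM, the neutrophil list 50.3 and 7.51 CPM and the macrophage list 109 and 91.8 CPM. The mature dendritic list was 153 and 120 CPM, and the NK, B, conventional and plasmacytoid dendritic, erythroid and adipocyte lists were lower too. Of the lymphoid and myeloid lists only mast was higher, at 1.35 and 6.30 CPM. The cancer list was higher, at 264 and 378 CPM, as were the skeletal muscle and platelet lists. Their part in the ligand ratios was not tested. Of the T, monocyte and neutrophil lists, 2 of 6 neutrophil markers were at 0 with control IgG and no other marker was at 0. The median log2 ratio of the counted ligands was -0.07 in lymphoid cells (all genes 0.03), -0.12 in myeloid cells (all genes 0.04) and -0.22 in cancer-like cells (all genes -0.05). Intervals on the ratios cover counting error only, so they leave out the spread between mice.

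**Figure D3:**
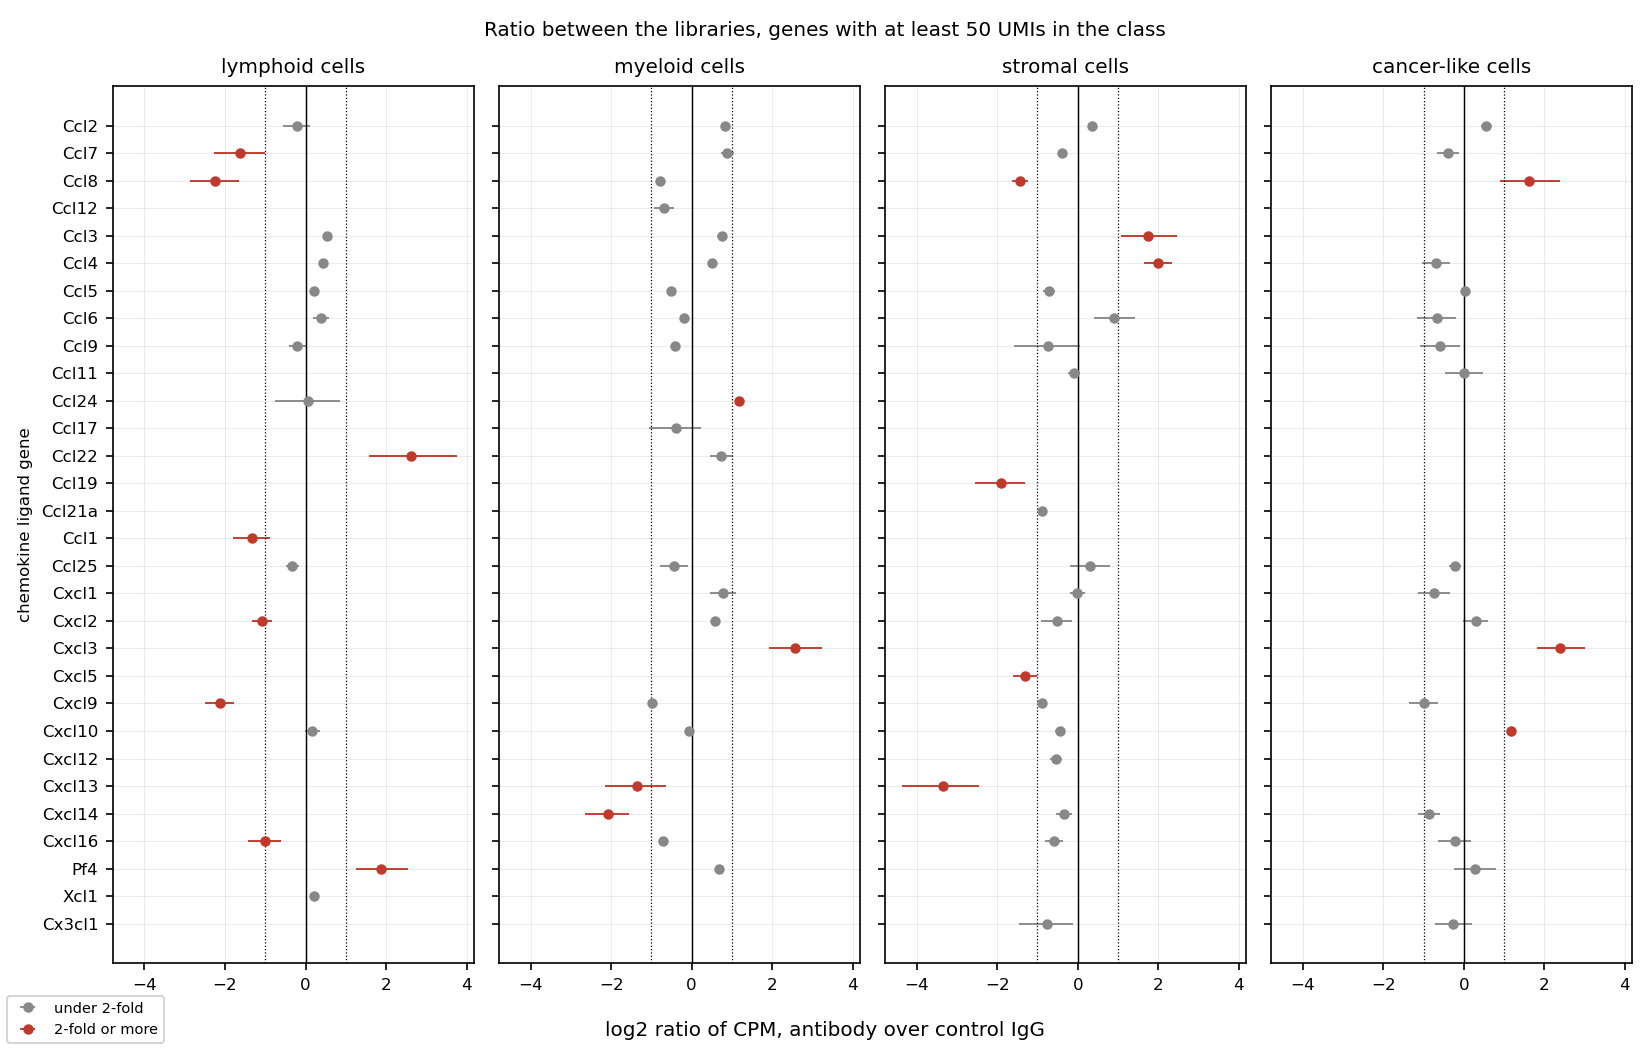
Log2 ratio of CPM, antibody over control IgG, for ligands with at least 50 UMIs in the class, in the 4 classes; bars are 95% intervals for counting error only, dotted lines mark 2-fold, and red points are at or past it. Of the 22 stromal points 17 lie left of 0, while 12 of 22 myeloid points do.

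Single cells carried many of the larger ratios. Of the 21 called values, 14 had a cell that held 33.3% or more of the gene's UMIs in that class in 1 of the libraries, against 9 of the 59 values that were counted and not called. Cxcl16 in lymphoid cells and Ccl8 in stromal cells were at the other end, with at most 10.3% and 10.7% of their UMIs in any cell. Lymphoid Cxcl16, however, lay below the share of free RNA taken off as an alternative in both libraries. Many of the leading cells, though not all, are described below beside the ligands they bear on.

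**Figure D4:**
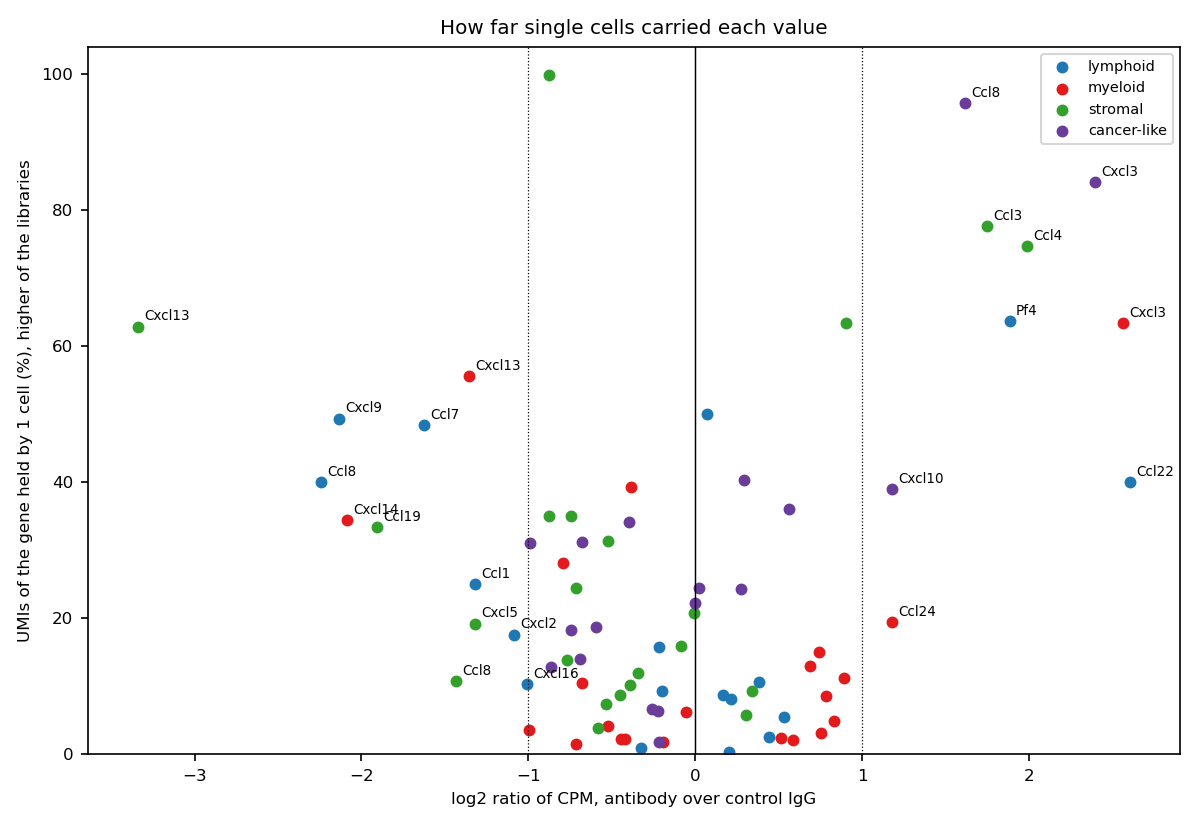
Each point is 1 ligand in 1 class (80 points, coloured by class): the log2 ratio of CPM, antibody over control IgG (horizontal), against the largest share of its UMIs that 1 cell held in either library (vertical, %), with called ligands named and dotted lines at 2-fold. Cxcl3 and Ccl8 in cancer-like cells, at 84.1% and 95.7%, stand at the top right, and the unnamed point at the top is stromal Ccl21a.

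The genes grouped here as CCR2 ligands (Ccl2, Ccl7, Ccl8 and Ccl12) lie with Ccl11 and Ccl1 within 270.1 kb on chromosome 11 (82035571 to 82305690, GRCm38). Among them, Ccl2 (the main monocyte attractant) was highest in stromal cells, at 637 CPM with control IgG and 808 CPM with the antibody (log2 ratio 0.34, 95% interval 0.27 to 0.41). As a mean of single-cell CPM, which weights every cell equally, the stromal ratio was -0.33. In myeloid cells it was 150 and 267 CPM (0.83, 0.74 to 0.92), and in cancer-like cells 30.6 and 45.2 CPM. The finer gates differed. In the fibroblast gate Ccl2 was 640 and 667 CPM, and in the mesothelial gate, of 28 and 20 cells, it was 688 and 1573 CPM. Macrophage-gated Ccl2 was 155 and 358 CPM (log2 ratio 1.21), with a UMI in 440 of 1092 and 135 of 298 cells, and no cell held over 8.31% of its UMIs. At 2000 UMIs per cell the expected share of macrophage-gated cells with a Ccl2 UMI was 20.1% and 29.1%. The same share was 0.684% and 0.617% in lymphoid cells, whose median depth was 4722 and 4107 UMIs against 7748 and 5854 in the macrophage gate. In lymphoid cells Ccl2 was 5.67 and 4.88 CPM. Of the cancer-like level, 1 cell held 36.0% and 25.7%, and without cells that held 3 markers of another class it was 21.9 and 9.70 CPM (-1.17).

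Ccl7, which binds CCR2 as well as CCR1 and CCR3, was also mainly stromal, at 361 and 275 CPM (log2 ratio -0.39). Its myeloid level was 44.4 and 82.2 CPM (0.89), and its cancer-like level 12.2 and 9.26 CPM (-0.40). It was 65.7 and 137 CPM in the macrophage gate, and in the monocyte gate 24.5 and 83.7 CPM. Ccl2 and Ccl7 were often found in the same fibroblast-gated cells. In the fibroblast gate of the control IgG library, 91 of 113 cells with Ccl2 also had Ccl7, and with the antibody 53 of 73 did. This compares with 114 of 231 and 77 of 241 fibroblast-gated cells with Ccl7 in all. In macrophage-gated cells 112 of 440 and 37 of 135 cells with Ccl2 had Ccl7, against 175 of 1092 and 51 of 298 in all. In lymphoid cells Ccl7 was 3.36 and 1.09 CPM (-1.63), but 1 control IgG cell held 48.4% of its UMIs. That cell had 6 of 6 T markers and also 4 of 7 fibroblast markers.

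Ccl8, grouped here with the CCR2 ligands by its family and known as a product of tissue macrophages, was called in 3 classes. Its receptor use in the mouse was not examined. Its level in myeloid cells was 375 and 216 CPM (log2 ratio -0.79, -0.88 to -0.71). Within the macrophage gate it was 691 and 655 CPM (-0.08), with 31.8% of the antibody UMIs in 1 cell, and macrophages were a smaller part of the myeloid class with the antibody. In stromal cells Ccl8 was 173 and 64.2 CPM (-1.43, -1.64 to -1.23), a 2.7-fold lower level that was spread over 120 and 71 cells. The expected share of stromal cells with a Ccl8 UMI at 2000 UMIs per cell was 17.5% and 8.49%. In lymphoid cells it was 5.16 and 1.09 CPM (-2.24), and 1 control IgG cell with 4 of 6 macrophage markers held 40.0%. The macrophage list as a whole was at 57.6 and 19.5 CPM in lymphoid cells, with none of its 6 markers at 0 in either library, and its part in the lymphoid ratios was not tested. In cancer-like cells Ccl8 was 1.09 and 3.34 CPM (1.62), and 1 antibody cell with 6 of 6 macrophage markers held 67 of the 70 UMIs. Without the leading cell of each library the cancer-like ratio was -2.86.

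Ccl12, which sits next to Ccl8 on chromosome 11, was myeloid, at 39.5 and 24.7 CPM (-0.68), and at most 2.66 CPM in the other 3 classes. In the macrophage gate it was 65.8 and 55.4 CPM. Of the macrophage-gated cells with Ccl8, 160 of 241 and 38 of 54 also had Pf4. This compares with 346 of 1092 and 93 of 298 macrophage-gated cells with Pf4 in all.

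Ccl5, a chemokine that effector T cells and NK cells store and secrete, was the most abundant ligand in lymphoid cells. It was 6803 CPM with control IgG (6777 to 6830) and 7823 CPM with the antibody (7788 to 7858), a log2 ratio of 0.20. It was 7796 and 9007 CPM in the NK gate and 6962 and 7949 CPM in the T gate. Among T cells it was 9102 and 10512 CPM where Cd8a or Cd8b1 had a UMI, and 1875 and 1799 CPM where Cd4 did. At 2000 UMIs per cell 89.7% and 91.0% of the former and 54.1% and 53.7% of the latter were expected to show a UMI. In myeloid cells Ccl5 was 1363 and 950 CPM (-0.52). Within the myeloid class it was highest in the mature dendritic gate, at 5519 and 4280 CPM. In cancer-like cells Ccl5 was 252 and 256 CPM. There, 1 cell held 16.3% and 24.5% of its UMIs, and leaving out cells with 3 markers of another class gave 57.7 and 39.9 CPM. In stromal cells it was 244 and 149 CPM (-0.71), and in the mesothelial gate 517 and 18.2 CPM, where 1 control IgG cell held 58.8%. The lymphoid, T, NK and mature dendritic log2 ratios of Ccl5 lay between -0.37 and 0.21.

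Ccl3 and Ccl4, inflammatory chemokines that activated lymphocytes and myeloid cells release, were both higher with the antibody in lymphoid and in myeloid cells. Ccl4 was 416 and 565 CPM in lymphoid cells (log2 ratio 0.44, 0.41 to 0.48) and 513 and 732 CPM in myeloid cells (0.51, 0.46 to 0.56). Ccl3 was 78.6 and 114 CPM in lymphoid cells (0.53) and 93.7 and 158 CPM in myeloid cells (0.75). T cells with Cd8a or Cd8b1 held most of the lymphoid Ccl4, at 579 and 767 CPM, against 97.4 and 154 CPM in T cells with Cd4. The genes shared cells: of T-gated cells with Ccl3, 562 of 756 and 471 of 599 also had Ccl4, while 2005 of 5209 and 1618 of 4117 T-gated cells had Ccl4 in all. Macrophage-gated cells had Ccl3 at 76.3 and 200 CPM (1.39) and Ccl4 at 423 and 816 CPM (0.95). In the monocyte gate the ratios were 0.35 for Ccl3 and 0.20 for Ccl4. The plasmacytoid dendritic gate, of 41 and 35 cells, had Ccl4 at 2067 and 2229 CPM. The neutrophil gate, of only 18 and 17 cells, had the highest Ccl3 of any gate. There Ccl3 went the other way, at 690 and 315 CPM. That gate was also the highest for Ccl4 with control IgG, at 2125 CPM. In stromal cells Ccl4 was 18.3 and 72.6 CPM (1.99) and Ccl3 4.82 and 16.2 CPM (1.75). The same single antibody cell, with 7 of 7 fibroblast and 5 of 6 T markers, held 224 of 300 Ccl4 UMIs and 52 of 67 Ccl3 UMIs. Without cells that held 3 markers of another class, stromal Ccl4 was 4.35 and 5.34 CPM and stromal Ccl3 2.37 and 1.78 CPM. In cancer-like cells Ccl4 was 8.87 and 5.49 CPM (-0.69).

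Ccl6 and Ccl9, CCR1 ligands found in rodents, marked the myeloid class. Ccl6 was 1000 and 874 CPM there (log2 ratio -0.19) and Ccl9 607 and 454 CPM (-0.42). Inside the macrophage gate Ccl6 was 1320 and 1615 CPM (0.29) and Ccl9 810 and 833 CPM (0.04). In lymphoid cells Ccl6 was 11.9 and 15.5 CPM (0.38) and Ccl9 13.6 and 11.8 CPM (-0.20). Neither had a settled direction there, since over the alternatives the Ccl6 ratio ran from -0.27 to 2.54 and the Ccl9 ratio from -0.74 to 5.85. In stromal cells Ccl6 was 10.6 and 19.9 CPM (0.90), with 63.4% of the antibody UMIs in 1 cell and a ratio of -0.89 without cells that held 3 markers of another class, and Ccl9 was 8.10 and 4.84 CPM (-0.74). In cancer-like cells Ccl6 was 4.66 and 2.91 CPM (-0.68) and Ccl9 4.26 and 2.82 CPM (-0.60). Most macrophage-gated cells had both: 896 of the 949 control IgG cells with Ccl6 also had Ccl9, and 206 of 234 antibody cells. In all, 992 of 1092 and 243 of 298 macrophage-gated cells had Ccl9.

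The CCR3 ligands, which attract eosinophils, came from different classes. Ccl11 (eotaxin) was a fibroblast product, at 202 CPM in the fibroblast gate of both libraries, and at no more than 3.87 CPM in the other 3 classes. Cells of the skeletal muscle and adipocyte gates had 5 and 2 UMIs of it, and ungated cells 14 and 17. Its stromal level was 172 and 162 CPM (log2 ratio -0.08). Ccl24 was myeloid, at 85.8 and 195 CPM (1.18, 1.07 to 1.29), a 2.27-fold higher level with the antibody. In the monocyte gate Ccl24 was 88.4 and 310 CPM (1.81), with a UMI in 53 of 852 and 63 of 472 cells. In the macrophage gate it was 98.8 and 131 CPM (0.40), under 2-fold. Its leading cells, both in the monocyte gate, held 10.0% and 19.4% of the myeloid UMIs. They carried at most 1 marker of any list of another class. At 2000 UMIs per cell 3.79% and 8.64% of monocyte-gated and 4.96% and 9.81% of macrophage-gated cells were expected to have a Ccl24 UMI, against 0.0848% and 0.0782% of lymphoid cells, where Ccl24 was 0.922 and 0.968 CPM.

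The CCR4 ligands, which attract regulatory and type 2 helper T cells, were rare. Ccl22 was highest in the mature dendritic gate, at 335 and 383 CPM, where 38 of 61 and 24 of 46 cells had a UMI. Over all myeloid cells Ccl22 was 15.8 and 26.4 CPM (log2 ratio 0.74). In lymphoid cells it had 10 and 41 UMIs, 0.271 and 1.65 CPM (2.61), each time in 7 cells. The control IgG cell with most of them, 40.0%, was in the T gate and had 4 of 6 mature dendritic markers, and the antibody cell, with 31.7%, was in the B gate with 6 of 6 B markers. Without cells that held 3 markers of another class the counts were 6 and 37 UMIs, too few in sum for lymphoid Ccl22 to be counted, at 0.169 and 1.54 CPM (3.18). Ccl17 had 93 and 28 UMIs in myeloid cells, 5.59 and 4.27 CPM (-0.39).

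The CCR7 ligands guide T cells and mature dendritic cells in lymphoid tissue. Ccl19 was 24.5 and 6.54 CPM in stromal cells (log2 ratio -1.91, -2.56 to -1.30), from 127 and 27 UMIs in 33 and 14 cells, and leading cells held 12.6% and 33.3%. Its ratio was past 2-fold under all 12 alternatives tried, from -2.38 to -1.83. Ccl21a stood at 388 and 211 CPM in stromal cells, yet 1 endothelial-gated cell per library, with 7 of 7 endothelial markers, held 2010 of 2011 and 872 of 873 UMIs. The Ccl21a ratio (-0.88) thus compared 1 cell with 1 cell. The symbol covers 2 identifiers, which were summed, and further near-identical copies of this gene could share its reads.

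Of the remaining CC ligands, Ccl1, a CCR8 ligand made by activated T cells, was lymphoid. It was 5.24 and 2.10 CPM (log2 ratio -1.32, -1.79 to -0.87), from 193 UMIs in 37 cells and 52 UMIs in 21 cells. In T cells with Cd4 it was 14.8 and 4.58 CPM, from 12 and 7 cells with a UMI. T cells with Cd8a or Cd8b1 went the other way, at 0.595 and 1.38 CPM from 13 and 20 UMIs (1.21), too few to be counted. The highest gate was NK with control IgG (12.3 CPM) and T with the antibody (2.29 CPM). No leading lymphoid cell carried more than 1 marker of any list of another class. Under the alternatives the lymphoid ratio ran from -1.73 to -1.29. In the antibody library a further 34 UMIs of Ccl1, of which 1 cell held 97.1%, lay in cells that no gate took. Ccl25, the CCR9 ligand of thymus and gut, was found in all 4 classes. It ranged from 13.5 to 33.7 CPM with control IgG and from 13.9 to 28.9 CPM with the antibody, and no cell held over 5.71% of its UMIs in any class. Ccl25 overlaps Elavl1 on the opposite strand of chromosome 8 in GENCODE M21.

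The CXCR2 ligands, which attract neutrophils, lie within 147 kb, with Pf4, Ppbp and Cxcl15, on chromosome 5 (90759360 to 90905938, GRCm38). They were split between myeloid and stromal cells. Cxcl2 was myeloid, at 587 and 881 CPM (log2 ratio 0.59, 0.54 to 0.63). It was highest in the neutrophil gate, which held only 18 and 17 cells, at 7830 and 1518 CPM, and was 666 and 1424 CPM in the macrophage gate (1.10) and 543 and 811 CPM in the monocyte gate (0.58). In the macrophage gate 41.7% and 59.2% of cells were expected to have a Cxcl2 UMI at 2000 UMIs per cell, against 1.56% and 0.933% of lymphoid cells. Lymphoid Cxcl2 was 15.6 and 7.34 CPM (-1.09), in 219 and 101 cells. Its leading lymphoid cells held 7.65% and 17.6% of those UMIs. The control IgG cell had 3 of 6 neutrophil markers and the antibody cell 6 of 6 macrophage markers. In stromal cells Cxcl2 was 29.9 and 20.8 CPM (-0.52), and in cancer-like cells 8.23 and 10.1 CPM (0.29). Both directions turned without cells that held 3 markers of another class, to 9.10 and 12.8 CPM (0.50) in stromal and 6.31 and 5.04 CPM (-0.33) in cancer-like cells. Cxcl1 was 110 and 109 CPM in stromal cells, and without those cells 66.5 and 105 CPM (0.66, 0.38 to 0.94). It was 12.5 and 21.5 CPM in myeloid cells (0.78) and 17.8 and 58.0 CPM in the macrophage gate (1.70). In the monocyte gate the Cxcl1 ratio was 0.21. Its cancer-like level was 6.79 and 4.06 CPM (-0.74), with a ratio of -1.36 without cells that held 3 markers of another class. Cxcl3 was low, at 1.80 and 10.7 CPM in myeloid cells (2.57) from 30 and 70 UMIs, and 1 neutrophil-gated cell held 63.3% of the control IgG UMIs. In cancer-like cells Cxcl3 was 1.49 and 7.83 CPM (2.40), where 1 antibody cell with 96700 UMIs held 138 of 164. That cell had 5 of 5 cancer markers and no more than 1 marker of any list of another class. The leading control IgG cell, with 76.7% of the UMIs, had 4 of 7 fibroblast markers. Without cells that held 3 markers of another class the cancer-like Cxcl3 ratio was 6.51. The neutrophil list was at 2.63 and 136 CPM in cancer-like cells, and its part in the Cxcl3 ratio was not tested. The neighbours Cxcl1, Cxcl2 and Cxcl3 were thus all higher with the antibody in myeloid cells. The neutrophil marker list was also higher in myeloid cells, at 258 and 7780 CPM with no marker at 0, and its part in these values was not tested. Cxcl5 was stromal, at 75.4 and 30.3 CPM (-1.32, -1.62 to -1.02), from 38 and 23 cells. The difference lay in the fibroblast gate, with 72.6 and 16.0 CPM, while the mesothelial gate had 101 CPM in both libraries.

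The bases before the start sites of Cxcl1, Cxcl2 and Cxcl3, and of the CXCR3 ligands Cxcl9 and Cxcl10, are shown because the first 3 neighbours were all higher with the antibody in myeloid cells, while Cxcl9 and Cxcl10 had different ratios in each class. Each run covers 250 to 31 bases before the RefSeq start site, 5′ to 3′ on the gene's strand, from the GRCm38.p6 promoter table. Capitals mark matches to a NF-kappaB motif (GGGAA, then any base, then TTCC) or to an interferon-stimulated response element (GAAA, any 2 bases, GAAA), searched on both strands.
Cxcl1 (chr5:90890995-90891214, plus strand): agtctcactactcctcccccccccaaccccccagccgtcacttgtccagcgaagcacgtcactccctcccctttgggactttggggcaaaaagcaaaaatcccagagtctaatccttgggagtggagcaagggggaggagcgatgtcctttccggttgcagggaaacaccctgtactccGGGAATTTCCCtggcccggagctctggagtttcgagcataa
Cxcl2 (chr5:90903649-90903868, plus strand): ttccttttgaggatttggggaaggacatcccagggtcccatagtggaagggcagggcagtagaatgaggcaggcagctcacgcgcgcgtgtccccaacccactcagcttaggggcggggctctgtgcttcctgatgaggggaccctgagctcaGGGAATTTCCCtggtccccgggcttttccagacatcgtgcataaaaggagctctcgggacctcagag
Cxcl3 (chr5:90785851-90786070, plus strand): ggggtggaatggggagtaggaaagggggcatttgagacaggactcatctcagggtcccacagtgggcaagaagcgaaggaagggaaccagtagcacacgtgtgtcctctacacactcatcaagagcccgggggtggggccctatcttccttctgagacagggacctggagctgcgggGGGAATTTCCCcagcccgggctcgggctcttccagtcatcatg
Cxcl9 (chr5:92328110-92328329, minus strand): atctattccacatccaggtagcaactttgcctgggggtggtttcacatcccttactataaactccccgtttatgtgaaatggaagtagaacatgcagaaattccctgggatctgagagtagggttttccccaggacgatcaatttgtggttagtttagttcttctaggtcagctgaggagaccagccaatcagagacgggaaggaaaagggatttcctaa
Cxcl10 (chr5:92348920-92349139, minus strand): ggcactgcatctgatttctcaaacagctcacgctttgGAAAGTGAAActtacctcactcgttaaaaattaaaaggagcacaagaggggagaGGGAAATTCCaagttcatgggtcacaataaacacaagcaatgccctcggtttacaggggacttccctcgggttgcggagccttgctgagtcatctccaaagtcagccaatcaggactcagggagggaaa

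Cxcl1, Cxcl2 and Cxcl3 each held the run GGGAATTTCCC, in which matches on both strands overlap. Cxcl10 held 1 match to each motif, and Cxcl9 held neither in these letters. Over the full 250 bases before the start, the NF-kappaB letters occurred in 0.283% of 32851 promoters and the interferon letters in 2.98%. Of the 25 ligands with a promoter in the table, 5 held the former (Ccl1, Cxcl1, Cxcl2, Cxcl3 and Cxcl10) and 3 the latter (Ccl19, Cxcl10 and Cxcl14). The STAT motif TTCNNNGAA was found in Ccl17 and Cxcl14, against 7.02% of promoters. The SMAD motif CAGACA, searched because Activin A signals through SMAD proteins, was found in 5 ligands (Ccl17, Ccl22, Ccl25, Cxcl2 and Ppbp), against 17.1% of promoters. The letters of the motifs were settled after several spellings had been looked at, and a match describes the sequence only.

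The CXCR3 ligands are induced by interferons. Cxcl9 was lower with the antibody in all 4 classes, but in cancer-like cells that direction did not hold under every alternative. In free RNA Cxcl9 was lower too, at 52.9 and 29.9 CPM. The share taken off as an alternative was 19.1% and 10.3% of that in lymphoid and 17.4% and 13.3% in cancer-like cells. This comes near the Cxcl9 levels of those classes given below, and the part of free RNA in them was not tested further. In stromal cells Cxcl9 was 464 and 253 CPM (log2 ratio -0.88, -0.98 to -0.77), with a UMI in 120 of 266 and 42 of 263 cells. At 2000 UMIs per cell the expected shares were 23.6% and 7.14% of stromal cells, against 0.536% and 0.145% of lymphoid cells. Median depth was 17917 and 10584 UMIs in stromal cells. In the antibody library 1 cell held 35.1% of the stromal Cxcl9 UMIs. In myeloid cells Cxcl9 was 404 and 202 CPM (-0.99, -1.08 to -0.91), and no cell held over 3.54% of its UMIs. The monocyte gate had 360 and 127 CPM (-1.50) and the macrophage gate 454 and 363 CPM (-0.32). In cancer-like cells Cxcl9 was 9.46 and 4.77 CPM (-0.99). There the ratio kept its sign in 8 of 10 alternatives (-1.22 to 1.59), and without cells that held 3 markers of another class Cxcl9 was 5.26 and 6.14 CPM (0.22). In lymphoid cells it was 13.3 and 3.03 CPM (-2.13). The leading lymphoid cell of each library had 6 of 6 T and 5 of 7 fibroblast markers, and it held 23.1% and 49.3% of the UMIs. Without cells that held 3 markers of another class, the lymphoid ratio was -0.60.

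Cxcl10 did not share this pattern. It was 264 and 194 CPM in stromal cells (-0.45), 243 and 234 CPM in myeloid cells (-0.05), and 15.8 and 17.7 CPM in lymphoid cells (0.17). In cancer-like cells Cxcl10 was 70.1 and 159 CPM (1.18, 1.09 to 1.27), from 1414 UMIs in 91 cells and 3320 UMIs in 103 cells. A single cell held 39.0% of them with control IgG and 35.1% with the antibody. The ratio was past 2-fold in all 10 alternatives, from 1.18 to 3.39. The expected share of cancer-like cells with a Cxcl10 UMI at 2000 UMIs per cell was 4.96% and 6.40%. Of fibroblast-gated cells with Cxcl9, 69 of 111 also had Cxcl10 in the control IgG library, and 19 of 38 in the antibody library. In all, 99 of 231 and 65 of 241 fibroblast-gated cells had Cxcl10. Cxcl10 overlaps Art3 on the other strand of chromosome 5, and whether counting used strand is not given in the sources used here.

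Among the other CXC ligands, Cxcl12, the fibroblast-made ligand of CXCR4, was 214 and 148 CPM in stromal cells (log2 ratio -0.54, -0.68 to -0.39). It was at most 0.543 CPM in the other 3 classes. Cxcl14 was 14.7 and 8.07 CPM in cancer-like cells (-0.87) and 110 and 86.9 CPM in stromal cells (-0.34). In myeloid cells Cxcl14 was 20.7 and 4.88 CPM (-2.09, -2.66 to -1.56), from 345 UMIs in 164 cells and 32 UMIs in 16 cells. The leading antibody cell held 34.4%. It was lower in both main myeloid gates, at 30.9 and 15.1 CPM in macrophages and 11.2 and 0.910 CPM in monocytes, the last from 3 UMIs. The fibroblast list in myeloid cells summed to 47.3 and 34.8 CPM. Cxcl14 was thus the ligand with the lowest myeloid ratio, and it stayed past 2-fold in all 12 alternatives (-3.62 to -1.03).

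Cxcl13, which attracts B cells through CXCR5, was 27.0 and 2.66 CPM in stromal cells (-3.34), but it came from 9 and 6 cells, and 1 control IgG cell held 88 of the 140 UMIs. That cell had 5 of 7 fibroblast and 3 of 6 mature dendritic markers. In myeloid cells Cxcl13 was 7.03 and 2.75 CPM (-1.36), from 11 and 4 cells, and 1 cell held 35.0% and 55.6% of the UMIs. Myeloid Cxcl13 was past 2-fold in 8 of 11 alternatives, and with the gate mix held at that of control IgG its ratio was -0.48. Cxcl16, the membrane-bound ligand of CXCR6, was myeloid, at 335 and 204 CPM (-0.72, -0.80 to -0.63), in 1473 of 2134 and 438 of 913 cells. It was highest in the mature dendritic gate, at 752 and 624 CPM, and was lower with the antibody in the macrophage gate (399 and 294 CPM) and the monocyte gate (237 and 149 CPM). In stromal cells Cxcl16 was 95.1 and 63.4 CPM, in cancer-like cells 5.30 and 4.54 CPM, and in lymphoid cells 5.51 and 2.74 CPM (-1.01), just past the 2-fold line. Cxcl16 overlaps Zmynd15, a marker of the mature dendritic list, on the opposite strand of chromosome 11. Pf4, platelet factor 4, was a macrophage product here, at 223 and 485 CPM in the macrophage gate (1.12) and 38.1 and 151 CPM in the monocyte gate (1.99). No cell was gated as a platelet, and over the myeloid class Pf4 was 135 and 218 CPM (0.69). In cancer-like cells it was 2.92 and 3.53 CPM (0.27). In lymphoid cells Pf4 was 0.841 and 3.11 CPM (1.89). There, 1 antibody cell with 6 of 6 macrophage markers held 49 of the 77 UMIs.

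Xcl1, the C ligand that attracts XCR1-bearing dendritic cells, was lymphoid, at 55.8 and 64.7 CPM (log2 ratio 0.21, 0.12 to 0.31). It was highest in the NK gate, at 439 and 314 CPM (-0.48), and it was 41.1 and 49.6 CPM in the T gate. Of NK-gated cells with Xcl1, 111 of 120 and 128 of 132 also had Ccl5. This is near the share in the whole NK gate, where 295 of 310 and 356 of 368 cells had Ccl5. T cells with UMIs of neither Cd4 nor Cd8, or of both, had 60.3 and 138 CPM of Xcl1. Those with Cd8a or Cd8b1 had 43.7 and 36.1 CPM (-0.27), and those with Cd4 11.9 and 11.6 CPM (-0.04). Cx3cl1, the membrane-anchored ligand of CX3CR1, was 12.0 and 7.02 CPM in stromal cells (-0.77) and 4.46 and 3.72 CPM in cancer-like cells (-0.26).

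The gates were also compared one by one, a choice made after the classes had been compared. In the macrophage gate Ccl2, Ccl7, Ccl3, Cxcl1, Cxcl2 and Pf4 were all at least 2-fold higher with the antibody (2.21% of all genes counted in the gate were), and Cxcl14 was at least 2-fold lower (1.27%). In the monocyte gate Ccl7, Ccl8, Ccl24 and Pf4 were at least 2-fold higher (1.28%), and Ccl17, Cxcl9 and Cxcl14 at least 2-fold lower (0.937%). Monocyte Ccl8, at 9.73 and 49.1 CPM, came to 76.5% from 1 antibody cell. All of these genes were under 2-fold in the myeloid class as a whole except Ccl24 and Cxcl14, and the class held 1092 macrophage and 852 monocyte cells with control IgG and 298 and 472 with the antibody.

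**Figure D5:**
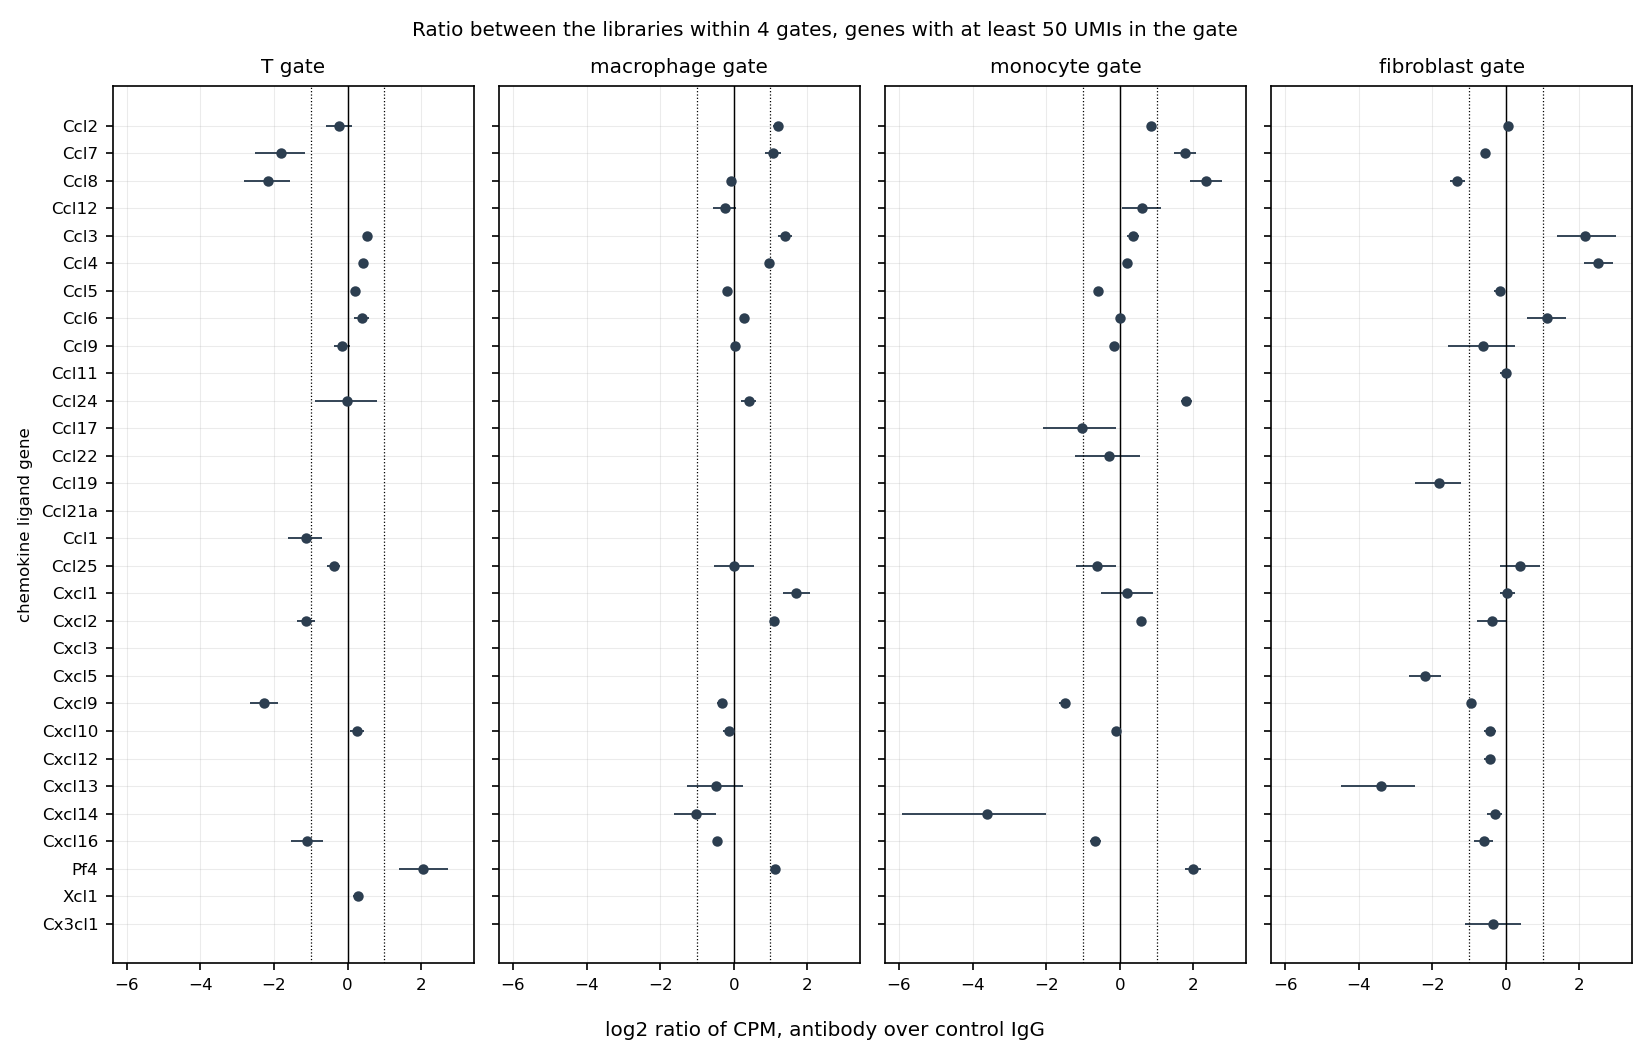
Log2 ratio of CPM, antibody over control IgG, for ligands with at least 50 UMIs in the T, macrophage, monocyte and fibroblast gates; bars are 95% intervals for counting error only and dotted lines mark 2-fold. In the macrophage gate Cxcl1 (1.70) and Ccl3 (1.39) lie furthest right.

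Of 23 chemokine receptors in the feature list, 16 were counted in lymphoid cells and none was called, against 1.8% of all counted genes. In myeloid cells 1 of 14 was called, against 4.76% of all genes. This was Cxcr2, the neutrophil receptor of Cxcl1, Cxcl2, Cxcl3 and Cxcl5, at 2.58 and 6.56 CPM (log2 ratio 1.34), from 43 UMIs in each library. In cancer-like cells 1 of 8 was called, against 2.2% of all genes. This was Cxcr6, the receptor of Cxcl16, at 4.66 and 2.15 CPM (-1.12). With at most 1 receptor called per class, these counts describe single genes and not the receptors as a set. Cxcr6 is a receptor of T cells, and the T list summed to 65.5 and 42.7 CPM in cancer-like cells, with no marker at 0; its part was not tested. Of 5 further ligands outside the rule's list, 4 were in the feature list and only Ccl27a was counted, in 3 classes, where it was under 2-fold.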

How the data were processed

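The authors deposited raw UMI counts per gene and barcode from 10x Genomics 3' libraries, 1 per group, as unfiltered matrices aligned to mm10. The labels name Cell Ranger 7.0.1 and the file headers name version 4. Nothing in these counts was normalized by the authors. The labels name v2 chemistry, and the published methods name another version. The published text gives other mouse numbers for its single-cell experiment, but the labels' numbers for an earlier antibody experiment. It also gives another treatment length. Cells were filtered as stated above and gated with 19 lists of 103 markers. For each list, marker levels (log of counts per 10000, divided by the 95th percentile of cells with a UMI and limited to 1) were averaged. A cell took its highest list if at least 2 markers had a UMI and the lead over lists of other classes was at least 0.05. No doublet caller was run. Cells with 3 or more markers of any 1 list of another class were left out as an alternative. UMIs were summed per class as CPM, with exact Poisson 95% intervals and exact conditional binomial intervals for ratios. A library at 0 was set to 3 counts. Shares of cells at 2000 UMIs are hypergeometric expectations, and shallower cells were left out. No test was possible with 1 library per group. Each ligand was described in every class where it had at least 50 UMIs. The receptors Ccr7, Ccr9 and Xcr1 were among the markers. Ligands, lists and gates were chosen with earlier results of these data known, and the split of T cells was added later. Scripts, checked on simulated counts, used Python 3.11.15, numpy 2.4.6, pandas 2.3.3, scipy 1.17.1, R 4.3.3 and, for an alternative scaling, edgeR 4.0.16. Positions came from GENCODE M21. Receptors in stromal cells are not reported here.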

Additional observations from a re-analysis of the deposited data

Results flagged for a closer look

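Ccl8 stood out because its log2 ratio, antibody over control IgG, was 1.62 in cancer-like cells but -2.24 in lymphoid and -1.43 in stromal cells. With 1 library per group the difference was not tested, and 1 antibody cell held 95.7% of the cancer-like UMIs.

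Cells that no gate took were outside the comparisons. Of the 30 ligands counted in some class, 7 had a higher CPM in these ungated cells than in any of the 4 classes. Ccl8 was 239 CPM in ungated antibody cells, with 94.5% of its UMIs in 1 cell. Ccl3 was 135 CPM with control IgG and 176 CPM with the antibody, and Ccl4 was 548 CPM with control IgG. Ccl1 was 37.5 CPM with the antibody, with 97.1% in 1 cell. Ccl25 was 34.4 CPM with control IgG. Cxcl3 was 48.8 CPM with control IgG, from 54 UMIs in 1 cell. Xcl1 was 141 CPM with control IgG and 343 CPM with the antibody, where 1 cell held 58.8%. Of the 364 ungated cells, 251 had fewer than 2 markers of their best list and 113 had a lead under 0.05, and the best list was T for 116 and NK for 60.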

How the results depend on the processing

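Of the 21 called log2 ratios, 18 kept their sign and 11 stayed past 2-fold under every alternative that gave a value. Of 889 recomputed ratios, 685 stayed within their counting interval, 200 left it, and 4 of called ligands changed sign. Without cells holding 3 markers of another class, Pf4 in lymphoid cells was -0.44 (26 and 13 UMIs), Ccl3 in stromal cells -0.41 (6 and 5) and Ccl8 in cancer-like cells -1.78 (2 and 1), too few UMIs to read a direction; without the leading cell Ccl8 there was -2.86. The 8 lymphoid calls became 5 with a gate lead of 0.15 and 5 at a minimum of 200 UMIs. Without cells holding 3 markers of another class they became 3 of 15 (1.5% of all genes). The 4 myeloid calls became 2 at 200 UMIs and 7 of 22 with the gate mix held at that of control IgG (3.22% of all genes). They became 7 of 19 in the macrophage gate alone (2.21% of all genes called higher and 1.27% lower). In the monocyte gate alone they became 7 of 20 (1.28% higher and 0.937% lower). The 6 stromal calls became 3 at 200 UMIs. Without cells holding 3 markers of another class they became 6 of 18, with Cxcl9 and Ccl21a in place of Ccl3 and Ccl4. The 3 cancer-like calls became 1 at 200 UMIs and 4 of 11 without cells holding 3 markers of another class. They became 5 without the leading cell and 5 after subtraction of free RNA scaled on markers. Where no share of all genes stands beside a count, none is given here, so that count cannot be set against other genes. Fewer genes were eligible at 200 UMIs; for the others the cause was not tested. The marker-scaled subtraction and the single gates were chosen after seeing the data. That subtraction took free RNA at 19.1% and 10.3% of its level in lymphoid cells. It gave no ratio for lymphoid Ccl7, Ccl8, Cxcl2, Cxcl16 and Pf4, which lay below that share of free RNA in both libraries. These calls were therefore not compared under it, and lymphoid Ccl8 is among the 11 ratios above without such a value. Some values that were not called had no ratio either, such as Ccl4 and Ccl5 in cancer-like cells and Ccl5 in stromal cells. Subtraction scaled on haemoglobin was not run for myeloid cells, where haemoglobin in the antibody library stood at 151% of its level in free RNA, with 725 of 741 UMIs in 1 cell. No paired analysis was possible because 1 pooled library stood for a group, and no replicate could be left out. Genes under 50 UMIs were too shallow to compare.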
